A study of Mus musculus with 6 samples.

Results

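Transcripts of 42 genes of the cell cycle and DNA replication were compared between primary mouse neurons in which *Kcna1* was activated by CRISPR and control neurons. The members were chosen by name and sorted by their known roles. Mitosis accounts for 24 of them, DNA replication for 13 and regulation of the step from G1 to S phase for 5. All 42 were among the 50508 gene names in the deposited data. All 42 were also among the 19504 genes tested, which are those with a value above 0 in at least 1 library.

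A dividing cell copies its DNA in S phase and separates the copies in mitosis. D-type and E-type cyclins bring cells into S phase by releasing E2F transcription factors from the retinoblastoma protein, and E2F factors drive genes of the replication machinery. Mitotic genes are switched on later through promoter elements that are bound by the DREAM and MuvB complexes and by NF-Y. Neurons have left the cell cycle for good, whereas progenitors and glia in the same culture can still divide.

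Both groups were primary neurons from newborn C57Bl/6J pups, transduced with lentivirus the day after plating. In both groups the virus carried dCas9-VP160, a Cas9 that does not cut, fused to a transcriptional activator, under the Ef1alpha promoter, which is active in neurons and in other cells. The control group carried the guide sgLacZ (Ctrl-dCas9A), which matches no mouse gene, and the other group carried a guide to the *Kcna1* promoter, labelled sgKcna1 (sg19, Kcna1-dCas9A). Each group had 3 libraries. The labels give hippocampus as the source whereas the methods of the study describe cortical cultures, and different times in culture are given in the methods. Whether the cultures received a drug against dividing cells is not stated in the sources used here. The study states in general terms that experiments were repeated independently, but no source used here says that the libraries of a group came from separate cultures. If they did not, the p-values measure only the spread between these libraries, which may be technical.

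The deposited values were whole numbers taken to be rounded tag numbers on a common library total, from 3′ end sequencing, in which each transcript gives a tag near its 3′ end. They summed to 999047 to 999443 in the sgLacZ libraries and to 999318 to 999717 in the sgKcna1 libraries, and the sequencing depth is unknown. The targeted gene *Kcna1*, which encodes the potassium channel Kv1.1, had values of 16, 16 and 16 in the sgLacZ libraries and 68, 47 and 65 in the sgKcna1 libraries. It rose by 1.83 on the log2(value + 1) scale (SE 0.16, limma, adjusted p = 0.0345), with no overlap between the groups. With any 1 library other than sgLacZ replicate 3 left out, its difference lay between 1.73 and 1.99 and no longer passed the threshold of 0.05. The library of sgLacZ replicate 3 stood apart from its group. Over 9751 genes its log2 values correlated at 0.959 to 0.974 with the sgKcna1 libraries and at 0.957 and 0.962 with the other sgLacZ libraries, which correlated at 0.977 with each other. Where this library moved a result most, the value without it is given as well.

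No member passed the threshold. Over all genes tested, 226 of 19504 (1.16%) had a limma p, adjusted by Benjamini-Hochberg, under 0.05, of which 68 (0.349%) were higher and 158 (0.81%) were lower in sgKcna1 neurons. This balance turned with other settings, to 963 higher and 758 lower with median-of-ratios rescaling, 1226 and 832 with upper-quartile rescaling, and 117 and 84 without an intensity trend. At an unadjusted p under 0.05, 16 of the 42 members were lower and 0 were higher, beside 2659 genes lower (13.6%) and 1870 higher (9.59%) over all genes tested, in all 4529 genes (23.2%). The 16 members were 8 of the 24 mitosis genes, 6 of the 13 DNA replication genes and 2 of the 5 G1 to S regulators.

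The direction of the members was mostly downward. The log2 fold change was below 0 for 33 members, above 0 for 8 and 0 for 1, beside 50.7% below 0 over all genes tested and 54.5% over the 13604 genes that had a mean of at least 1. In 17 members every sgKcna1 library lay below every sgLacZ library, and in 0 members every sgKcna1 library lay above. Over all genes tested the corresponding shares were 13.3% and 8.98%, and over genes with a mean of at least 1 they were 18.6% and 12.1%. The median log2 fold change was -0.47 over the 42 members and -0.017 over all genes tested.

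**Figure D1:**
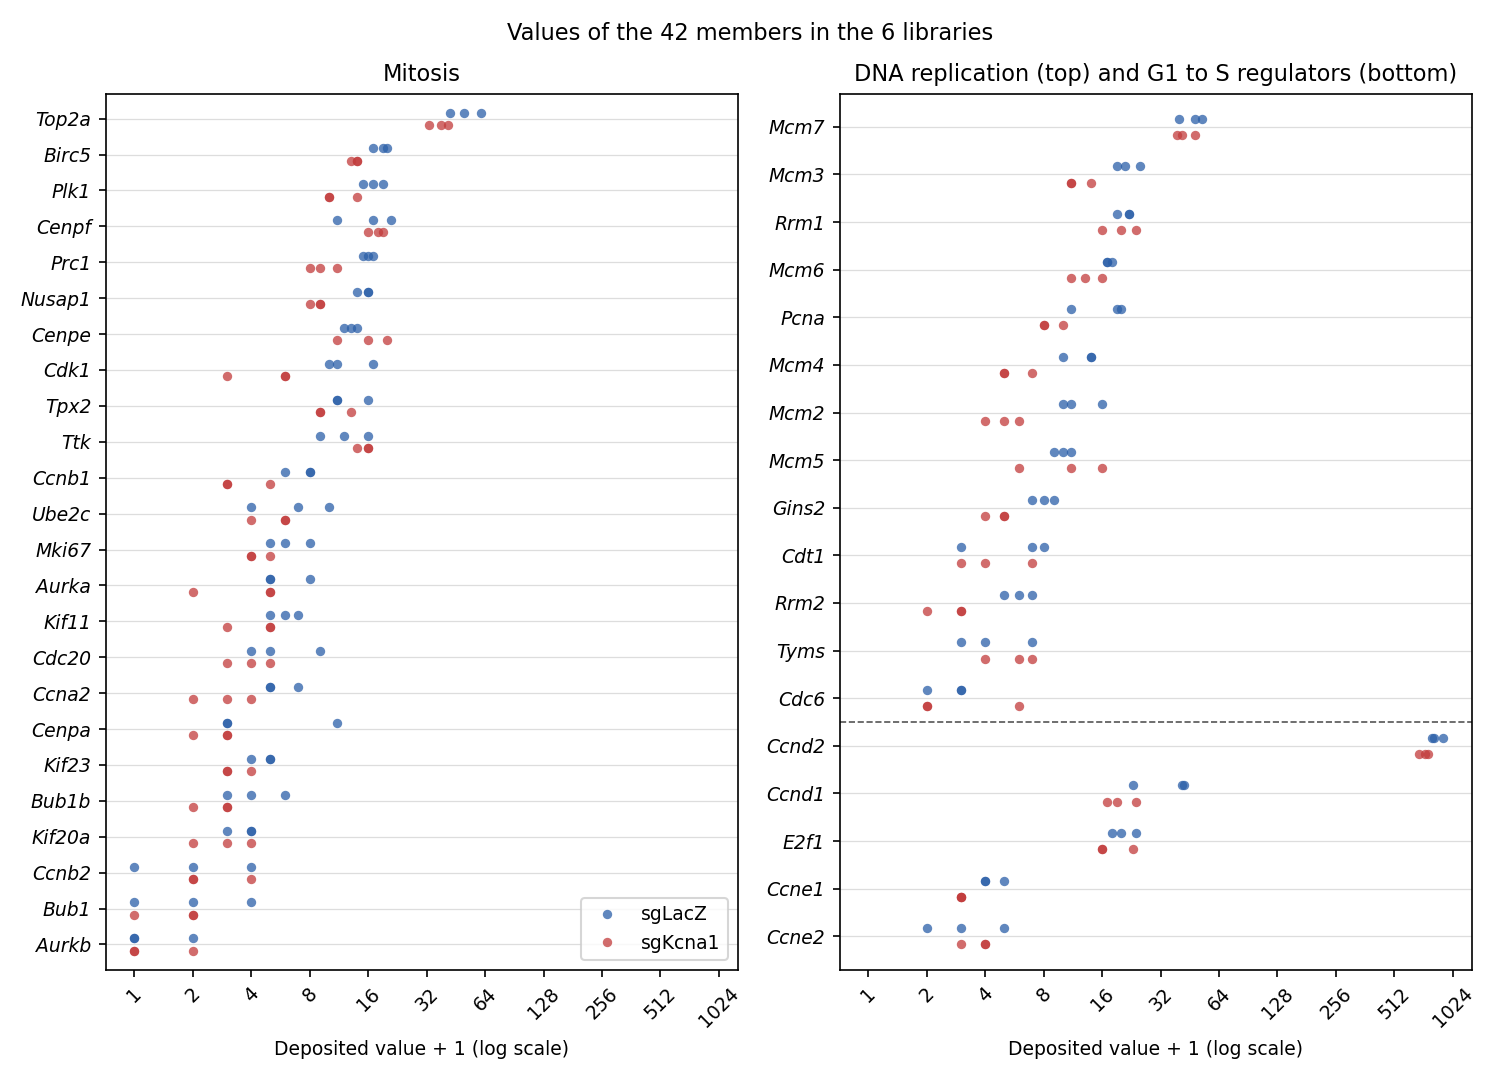
Deposited value plus 1 on a log axis for each of the 42 members, with sgLacZ libraries in blue and sgKcna1 libraries in red (3 points a group). Mitosis genes are on the left, and DNA replication genes (above the dashed line) and G1 to S regulators (below it) on the right; in 17 members all red points lie left of all blue points, and *Ccnd2* lies far above the rest, at 686 to 909.

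Summed over the 24 mitosis genes, the values were 229, 229 and 231 in the sgLacZ libraries and 173, 158 and 168 in the sgKcna1 libraries. The means were 230 ± 1.15 and 166 ± 7.64 (SD, n = 3 each), a difference of -27.6%. The sgLacZ library that stood apart, replicate 3, had a mitotic sum within 2 units of the others. Summed over the 13 DNA replication genes, the values were 184, 179 and 155 against 127, 130 and 122, with means of 173 ± 15.5 and 126 ± 4.04 (SD, n = 3 each) and a difference of -26.8%. Here sgLacZ replicate 3 was the lowest of its group, still above all sgKcna1 libraries, and without it the difference was -30.4%. No test was made of these sums, since the members were chosen with earlier results of these data known. In bulk cultures, fewer dividing cells and less RNA of these genes per cell cannot be told apart.

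Set against each other, the mitotic and the S phase genes kept a similar ratio. The summed DNA replication value per 100 of the summed mitosis value was 80.3, 78.2 and 67.1 in the sgLacZ libraries and 73.4, 82.3 and 72.6 in the sgKcna1 libraries. The groups overlapped, with means of 75.2 ± 7.10 and 76.1 ± 5.36 (SD, n = 3 each), and the sgLacZ mean was 79.3 without replicate 3. By single genes the median log2 fold change was -0.49 for mitosis, -0.39 for DNA replication and -0.21 for the G1 to S regulators. The DNA replication median depended on the libraries. It was -0.69 without sgLacZ replicate 3 and -0.67 without sgKcna1 replicate 2. With means of at least 5 the DNA replication median was -0.78, beside -0.44 for mitosis. The G1 to S median was -0.36 without sgKcna1 replicate 3, and -0.13 and -0.10 with the median-of-ratios and upper-quartile rescalings.

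**Figure D2:**
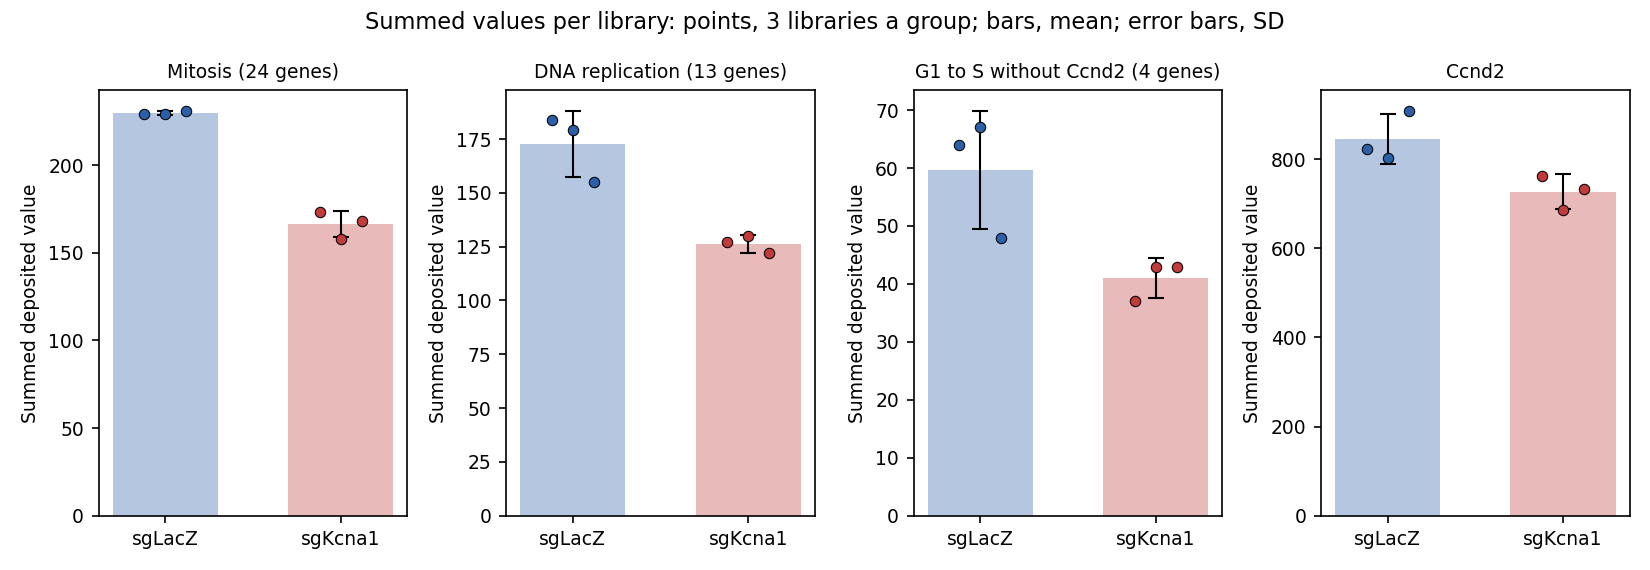
Summed deposited values per library for the 24 mitosis genes, the 13 DNA replication genes, the 4 G1 to S regulators other than *Ccnd2*, and *Ccnd2* itself (bars, mean; error bars, SD; points, 3 libraries a group). Each axis starts at 0, and in all 4 panels the sgKcna1 points lie below the sgLacZ points.

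Promoters of members were searched for elements known from these gene classes, and 4 are shown because many members were lower together. RefSeq promoter windows of 300 bases (250 before to 50 after the annotated start, GRCm38.p6) were matched for 33 of the 42 members. Windows were searched on both strands for the cell cycle genes homology region (CHR, TTTGAA), the CCAAT box (CCAAT, bound by NF-Y) and an E2F site (TTTCGCGC or TTTGGCGC). Of 20 mitosis genes with a window, 15 (75%) held a CHR, 18 (90%) a CCAAT box and 1 (5%, *Cdk1*) an E2F site. Of all 27025 genes with a window, 20.2% held a CHR, 41.1% a CCAAT box and 0.929% an E2F site. *Birc5* and *Nusap1* held none of the 3 motifs, and neither did *Ccne1* and *E2f1*, the 2 G1 to S regulators with a window. In *Top2a* and *Cdk1* below, written 5′ to 3′ along the gene, capitals mark all matches to these motifs on either strand (TTCAAA and ATTGG are the reverse of a CHR and a CCAAT box). *Top2a* (chr11:99024140-99024439, minus strand) is shown as the mitosis gene with the highest value. *Cdk1* (chr10:69352863-69353162, minus strand) was chosen after its values were seen, as the member with the lowest log2 fold change.
Top2a: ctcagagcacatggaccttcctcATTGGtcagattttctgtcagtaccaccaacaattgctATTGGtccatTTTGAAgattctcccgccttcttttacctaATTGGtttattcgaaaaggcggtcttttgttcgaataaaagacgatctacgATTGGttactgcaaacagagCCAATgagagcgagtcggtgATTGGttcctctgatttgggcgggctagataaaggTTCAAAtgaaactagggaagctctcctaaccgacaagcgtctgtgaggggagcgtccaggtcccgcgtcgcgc
Cdk1: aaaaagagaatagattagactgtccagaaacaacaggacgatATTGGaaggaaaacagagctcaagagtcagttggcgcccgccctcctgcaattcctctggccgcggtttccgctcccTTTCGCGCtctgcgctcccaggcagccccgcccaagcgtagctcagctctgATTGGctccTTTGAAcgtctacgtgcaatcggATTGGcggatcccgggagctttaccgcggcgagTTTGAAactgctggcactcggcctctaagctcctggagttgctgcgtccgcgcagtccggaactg

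*Top2a* held 2 CHR and 6 CCAAT matches. *Cdk1* held 2 CHR and 3 CCAAT matches and an E2F match. The CHR matches of *Cdk1* began 71 and 15 bases before the start and lay downstream of CCAAT matches. Mitosis genes with a CHR in the window had a median log2 fold change of -0.53 (n = 15), and those with a window but no CHR had -0.45 (n = 5). The groups did not overlap in 4 of the former and 3 of the latter.

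*Cdk1*, the kinase that drives cells into mitosis, had values of 16, 10 and 9 in the sgLacZ libraries and 5, 5 and 2 in the sgKcna1 libraries. All sgKcna1 libraries lay below the controls, and the log2 fold change was -1.37 (SE 0.35, limma, adjusted p = 0.0742). Its partners *Ccnb1* and *Ccna2*, the mitotic and S phase cyclins B1 and A2, are named after their values were seen, since both had means under 10. *Ccnb1* had 7, 7 and 5 against 2, 4 and 2 (log2 -1.03), and *Ccna2* had 6, 4 and 4 against 1, 3 and 2 (log2 -0.96). In both genes the groups did not overlap, and neither passed the threshold (limma, adjusted p = 0.0920 and 0.139). *Plk1*, a kinase of mitotic entry and spindle formation, had 18, 16 and 14 against 13, 9 and 9. The sgKcna1 libraries were again the lower ones (log2 -0.60, SE 0.20, limma, adjusted p = 0.131).

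*Nusap1* and *Prc1* had the smallest adjusted p of the mitosis genes. *Nusap1*, which binds and bundles spindle microtubules, had 15, 15 and 13 in the sgLacZ libraries and 8, 7 and 8 in the sgKcna1 libraries. The gap between the groups was wider than the range within either one, with a log2 fold change of -0.82 (SE 0.16, limma, adjusted p = 0.0553). *Prc1*, which crosslinks the midzone microtubules between the separating chromosomes, had 14, 16 and 15 against 10, 7 and 8. Its groups also did not overlap (log2 -0.79, SE 0.18, limma, adjusted p = 0.0584). *Birc5*, which encodes survivin, a subunit of the chromosomal passenger complex, had 19, 16 and 18 against 12, 13 and 13. It was lower in every sgKcna1 library (log2 -0.45, SE 0.14, limma, adjusted p = 0.122). *Tpx2*, which activates Aurora A on the spindle, had 10, 15 and 10 against 8, 8 and 12. Here the groups overlapped and the log2 fold change was -0.29, with a 95% interval from -0.87 to 0.28. It was -0.11 without sgLacZ replicate 2 and -0.47 without sgKcna1 replicate 3.

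*Top2a*, the topoisomerase that untangles chromosomes before they part, had 41, 49 and 60 in the sgLacZ libraries and 37, 32 and 40 in the sgKcna1 libraries. The groups were separated by 1 unit, between 41 and 40, and sgLacZ replicate 3 was the highest library (log2 -0.44, SE 0.17, limma, adjusted p = 0.17). The proliferation marker *Mki67*, named after its values were seen, had 4, 7 and 5 against 3, 3 and 4. The groups met at 4 (log2 -0.53, limma, adjusted p = 0.268), and the log2 fold change was -0.35 without sgLacZ replicate 2.

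For *Cenpe*, *Cenpf* and *Ttk* the log2 fold change lay above 0 with an interval that included 0, whereas it lay below 0 for *Bub1* (-0.33), *Bub1b* (-0.67) and *Cenpa* (-0.82), which also act at centromeres or in the checkpoint. Without sgLacZ replicate 1 these were 0.17, -0.40 and -0.19. *Cenpe*, a kinesin that aligns chromosomes, had 11, 12 and 13 in the sgLacZ libraries and 19, 10 and 15 in the sgKcna1 libraries. Its groups overlapped and its log2 fold change was 0.23 (95% interval -0.34 to 0.80), or 0.03 without sgKcna1 replicate 1 and 0.46 without sgKcna1 replicate 2. *Cenpf*, a large kinetochore protein, had 10, 16 and 20 against 18, 15 and 17, with the sgKcna1 libraries inside the control range. The log2 fold change was 0.16 (95% interval -0.43 to 0.75), and it was -0.10 without sgLacZ replicate 1 and 0.37 without sgLacZ replicate 3. *Ttk*, the checkpoint kinase MPS1, had 8, 11 and 15 against 13, 15 and 15. The groups overlapped (log2 0.35, 95% interval -0.20 to 0.90), with 0.14 without sgLacZ replicate 1 and 0.56 without sgLacZ replicate 3.

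The other 11 mitosis genes had group means of at most 6. They were *Ccnb2*, *Cdc20*, *Bub1*, *Bub1b*, *Aurka*, *Aurkb*, *Cenpa*, *Kif11*, *Kif20a*, *Kif23* and *Ube2c*, which are a cyclin, regulators of the checkpoint and of the anaphase-promoting complex, Aurora kinases, a centromeric histone and motor proteins. The groups overlapped in each of these genes. Their log2 fold changes ran from -0.82 (*Cenpa*) to 0.33 (*Ccnb2*). Both ends rested on sgLacZ replicate 1, without which they were -0.19 and -0.17, and *Cenpa* had 10, 2 and 2 in the sgLacZ libraries against 1, 2 and 2. At such values a single rounding step is a large part of the value.

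**Figure D3:**
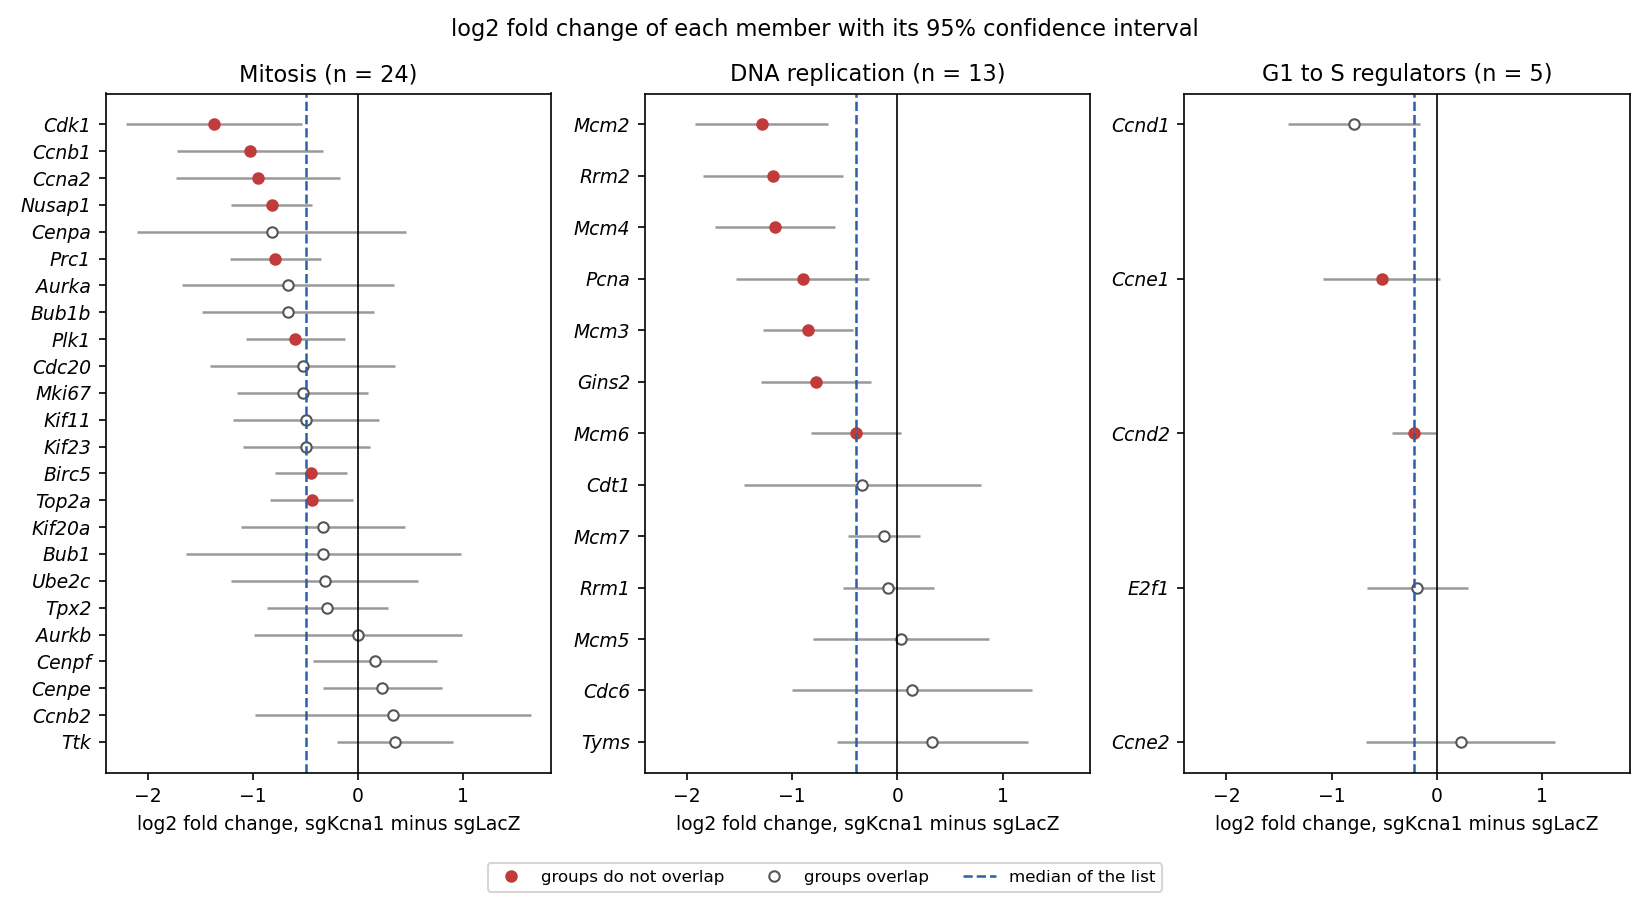
Log2 fold change of each member (sgKcna1 minus sgLacZ, on log2(value + 1)) with its 95% confidence interval, by role. Filled points mark the 8 mitosis, 7 DNA replication and 2 G1 to S genes whose groups do not overlap, all of them left of 0; dashed lines mark the medians of -0.49, -0.39 and -0.21.

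The windows of DNA replication genes differed in their elements from those of the mitosis genes. Of 11 DNA replication genes with a window, 5 (45.5%) held an E2F site (*Mcm3*, *Mcm5*, *Mcm6*, *Mcm7* and *Cdt1*), 8 (72.7%) a CCAAT box and 1 (9.09%, *Mcm2*) a CHR, while *Tyms* and *Cdc6* held none of them. *Mcm7* (chr5:138171834-138172133, minus strand, the window of 2 that held an E2F match) is shown as the replication gene with the highest value. *Mcm3* (chr1:20820263-20820562, minus strand) was chosen after its values were seen. Capitals mark the matches as above, and in *Mcm7* the E2F and a CCAAT match overlap, the 1 such overlap of different motifs in the windows of the members.
Mcm7: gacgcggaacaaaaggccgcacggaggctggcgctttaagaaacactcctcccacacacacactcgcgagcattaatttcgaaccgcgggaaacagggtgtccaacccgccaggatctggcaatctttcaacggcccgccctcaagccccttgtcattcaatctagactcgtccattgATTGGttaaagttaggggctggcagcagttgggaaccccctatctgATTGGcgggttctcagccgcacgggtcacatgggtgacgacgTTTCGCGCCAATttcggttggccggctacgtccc
Mcm3: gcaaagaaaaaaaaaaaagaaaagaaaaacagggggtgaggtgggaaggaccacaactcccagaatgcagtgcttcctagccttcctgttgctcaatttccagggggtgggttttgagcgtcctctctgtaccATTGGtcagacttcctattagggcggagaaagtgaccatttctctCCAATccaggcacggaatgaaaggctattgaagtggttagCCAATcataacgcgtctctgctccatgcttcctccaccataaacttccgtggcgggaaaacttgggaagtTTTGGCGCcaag

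Both E2F matches lay after the annotated start, from base 16 in *Mcm7* and from base 38 in *Mcm3*, counted from 0. DNA replication genes with an E2F match had a median log2 fold change of -0.33 (n = 5) and those with a window but no match had -0.49 (n = 6). A match is a description of letters, and no binding was measured.

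The MCM proteins form the ring-shaped helicase that opens DNA at replication origins, and the log2 fold changes of its 6 subunits ran from -1.29 to 0.03. *Mcm2* had values of 15, 9 and 10 in the sgLacZ libraries and 5, 4 and 3 in the sgKcna1 libraries. All sgKcna1 libraries lay below the controls (log2 -1.29, SE 0.27, limma, adjusted p = 0.0556). *Mcm3* had 24, 20 and 18 against 10, 10 and 13, again without overlap (log2 -0.85, SE 0.18, limma, adjusted p = 0.0556). *Mcm4* had 13, 13 and 9 against 4, 6 and 4. Its lowest control, sgLacZ replicate 3, stayed above its highest sgKcna1 library (log2 -1.16, SE 0.24, limma, adjusted p = 0.0556).

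In the remaining subunits the log2 fold change lay closer to 0. *Mcm6* had 17, 16 and 16 in the sgLacZ libraries and 15, 10 and 12 in the sgKcna1 libraries. The groups were 1 unit apart (log2 -0.39, SE 0.18, limma, adjusted p = 0.247). *Mcm5* had 10, 8 and 9 against 5, 15 and 10, so that the sgKcna1 libraries spanned the controls. Its log2 fold change was 0.03 (95% interval -0.81 to 0.87) and was below 0, from -0.29 to -0.02, without sgLacZ replicate 2, sgKcna1 replicate 2 or sgKcna1 replicate 3. *Mcm7* had 39, 51 and 47 against 47, 40 and 38, and the groups overlapped (log2 -0.13, 95% interval -0.47 to 0.22). It was -0.044 without sgLacZ replicate 2 and -0.23 without sgLacZ replicate 1. The last 500 bases of *Mcm7* carry an exon of *Cops6* on the opposite strand in the annotation, and whether counting used the strand is not stated in the sources used here. Such an overlap was present for 7 of the 42 members, the others being *Ccna2*, *Cdc20*, *Kif20a*, *Gins2*, *Ccne2* and *Ccnd1*, and their values are uncertain to that extent. Whether the 6 subunits differed from each other in their response was not tested.

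*Pcna*, the clamp that holds DNA polymerases on the template, had 18, 19 and 10 in the sgLacZ libraries and 7, 7 and 9 in the sgKcna1 libraries. The groups did not overlap, but sgLacZ replicate 3 was close to the sgKcna1 libraries (log2 -0.90, SE 0.27, limma, adjusted p = 0.102), and the log2 fold change was -1.18 without it. The subunits of ribonucleotide reductase, which makes the building blocks of DNA, gave unlike values. The large subunit *Rrm1* had 21, 21 and 18 against 19, 23 and 15, with overlap (log2 -0.09, 95% interval -0.52 to 0.35, and from -0.23 to 0.065 with 1 library left out). The small subunit *Rrm2*, made in S phase and named after its values were seen, had 6, 5 and 4 against 2, 1 and 2. It was lower in every sgKcna1 library (log2 -1.18, SE 0.28, limma, adjusted p = 0.0633). *Gins2*, a subunit of the active helicase, also named after its values were seen, had 6, 7 and 8 against 4, 4 and 3 (log2 -0.78, SE 0.22, limma, adjusted p = 0.0926). *Cdc6* and *Cdt1*, which load the helicase, and *Tyms*, which makes thymidylate, had group means of at most 5 and overlapping groups, with log2 fold changes from -0.33 to 0.33. With 1 library left out, *Cdt1* (log2 -0.33) ran from -0.77 (without sgLacZ replicate 3) to -0.060 (without sgKcna1 replicate 3), *Tyms* (log2 0.33) from 0.060 (without sgLacZ replicate 3) to 0.67 (without sgLacZ replicate 1) and *Cdc6* (log2 0.14) from -0.39 (without sgKcna1 replicate 3) to 0.40 (without sgKcna1 replicate 1 or 2).

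Of the G1 to S regulators, *Ccnd2* (cyclin D2, which activates CDK4 and CDK6) supplied most of the tags of all members. Its values were 823, 803 and 909 in the sgLacZ libraries and 763, 686 and 734 in the sgKcna1 libraries. Every sgKcna1 library was lower, and sgLacZ replicate 3 was the highest control (log2 -0.21, SE 0.09, limma, adjusted p = 0.207). The log2 fold change was -0.13 with median-of-ratios and -0.096 with upper-quartile rescaling. With *Ccnd2* left out, the sum of the other 41 members was 462 ± 24.3 in sgLacZ and 334 ± 3.06 in sgKcna1 libraries (SD, n = 3 each), a difference of -27.8%. With *Ccnd2* the difference of the sum over 42 members was -18.8%.

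*Ccnd1* (cyclin D1) had values of 41, 40 and 22 in the sgLacZ libraries and 18, 23 and 16 in the sgKcna1 libraries. sgLacZ replicate 3 lay among the sgKcna1 libraries, far from the other controls (log2 -0.78, SE 0.27, limma, adjusted p = 0.134), and the log2 fold change was -1.07 without it. The end of *Ccnd1* also carries an exon of another gene, *Oraov1*, on the opposite strand. The transcription factor *E2f1* had 17, 23 and 19 against 15, 15 and 22, with overlap (log2 -0.18, 95% interval -0.66 to 0.29). It was -0.071 without sgLacZ replicate 2 and -0.36 without sgKcna1 replicate 3. The E-type cyclins *Ccne1* and *Ccne2*, which activate CDK2, had group means of at most 3.33. The groups of *Ccne1* did not overlap (4, 3 and 3 against 2, 2 and 2), and those of *Ccne2* did (log2 -0.52 and 0.23). *Ccne2* was at -0.092 without sgLacZ replicate 2 and at 0.57 without sgLacZ replicate 3.

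Whether members passed the threshold depended on how the values were handled. With the test limited to the 13604 genes with a mean of at least 1, 7 members were lower at an adjusted p under 0.05 (*Cdk1*, *Nusap1*, *Prc1*, *Mcm2*, *Mcm3*, *Mcm4* and *Rrm2*), beside 7.17% of genes. With a mean of at least 5, 8 of the 23 members tested were called lower, now with *Pcna* and *Ccnd1* and without *Rrm2*, beside 15.7% of genes. With Gm42418 (a predicted gene holding 15.3 to 20.2% of each library) left out and the libraries rescaled, 7 members were lower, the same as with the mean of at least 1, beside 5.68% of genes. Rescaling by the median of ratios gave 5 members lower (*Cdk1*, *Nusap1*, *Mcm2*, *Mcm3* and *Mcm4*) beside 3.89%, and by the upper quartile gave 4 (*Cdk1*, *Mcm2*, *Mcm3* and *Mcm4*) beside 4.27%. A pseudocount of 0.1 gave only *Nusap1*, beside 1.88%. Without sgLacZ replicate 3, 6 members were lower (*Nusap1*, *Mcm3*, *Mcm4*, *Pcna*, *Rrm2* and *Ccnd1*), beside 8.12% of genes. Without any other single library, 0 members and 0 of all genes passed (limma), whereas 3332 to 3853 genes had an unadjusted p under 0.05. No member was called higher in any of these settings.

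**Figure D4:**
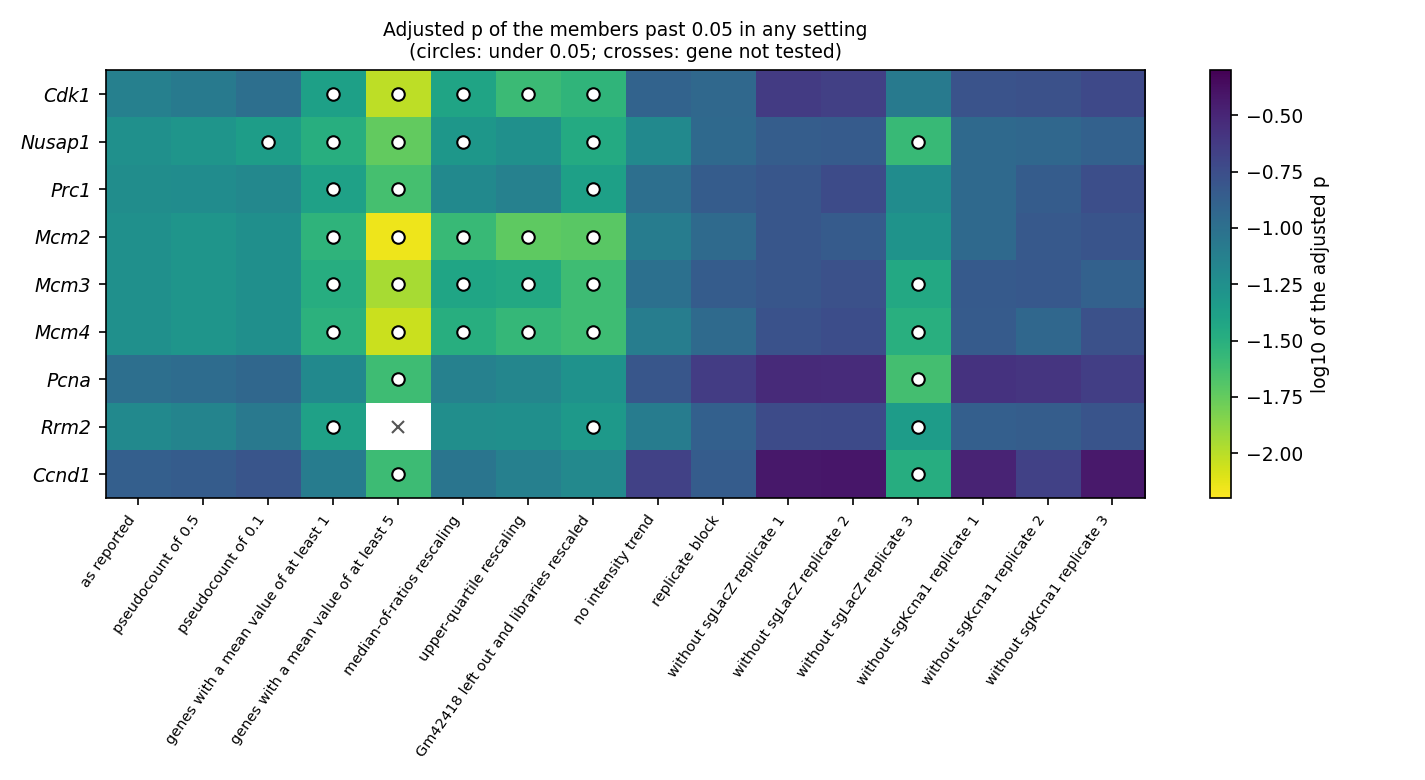
Log10 of the limma adjusted p of the 9 members under 0.05 in at least 1 setting, by setting (colour), with circles where the adjusted p is under 0.05 and a cross where the gene was not tested. The column as reported has no circle, the column without sgLacZ replicate 3 has 6, and the columns that leave out another library have none.

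Other mitosis and DNA replication genes had medians closer to 0 than the members of those roles. Their sums were higher on average in sgKcna1 libraries, but a few high genes that rose weighed heavily in them. The log2 fold change was below 0 for 40 and above 0 for 22 of the 64 other mitosis genes. It was below 0 for 36 and above 0 for 21 of the 59 other DNA replication genes, beside 50.7% below 0 over all genes. The sum of 64 other mitosis genes was 1443 ± 267 in sgLacZ and 1528 ± 82.7 in sgKcna1 libraries (5.94%), and that of 59 other DNA replication genes was 979 ± 82.6 and 1004 ± 27.1 (2.55%, SD, n = 3 each). By library the mitosis sum was 1274, 1303 and 1751 against 1614, 1522 and 1449. The replication sum was 946, 918 and 1073 against 1002, 978 and 1032. In both sums sgLacZ replicate 3 was the highest library. Of the 64 other mitosis genes 0 passed the threshold (limma), with 10 lower and 3 higher at an unadjusted p under 0.05, near the 13.6% lower over all genes, and a median log2 fold change of -0.20. The highest of them, *Tuba1b* and *Stmn1*, encode a tubulin and a tubulin-binding protein that neurons also make. *Tuba1b* had 451, 444 and 800 against 699, 635 and 572, with overlap, and *Stmn1* had 160, 192 and 265 against 326, 311 and 296 (log2 0.62, limma, adjusted p = 0.0927). The means of these genes rose together by more than the sum of the list. The rest of the list therefore summed lower on average in sgKcna1 libraries. Of the 59 other DNA replication genes 1 fell, beside 1.16% of all genes called, with 10 lower and 4 higher at an unadjusted p under 0.05 (13.6% and 9.59% over all genes) and a median of -0.09. It was *Rpa3*, a subunit of the protein that coats single-stranded DNA, with 5, 4 and 4 against 1, 1 and 1 (log2 -1.41, SE 0.23, limma, adjusted p = 0.0496), and it did not pass with a pseudocount of 0.5. The highest of this list were *Lig1*, a DNA ligase (93, 91 and 169 against 173, 167 and 155), and *Dnmt1*, which methylates newly made DNA (78, 101 and 119 against 98, 86 and 110). In both the groups overlapped, and in *Lig1* sgLacZ replicate 3 lay with the sgKcna1 libraries. The mean of *Lig1* rose from 118 to 165, by more than the sum of its list. The rest of that list summed slightly lower on average in sgKcna1 libraries, with overlapping groups.

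Of 20 other G1 to S regulators 18 had a log2 fold change below 0 (50.7% over all genes), 5 were lower at an unadjusted p under 0.05 (13.6% over all genes), and the median was -0.53. *Rb1*, which holds E2F factors inactive, had 34, 26 and 24 in the sgLacZ libraries and 13, 12 and 12 in the sgKcna1 libraries. It fell by 1.11 on the log2 scale (SE 0.17, limma, adjusted p = 0.0496), with no overlap, but did not pass with a pseudocount of 0.5 or without the intensity trend. The highest of the list, *Ccnd3* (91, 103 and 103 against 109, 120 and 106) and *Cdk4* (79, 79 and 56 against 71, 77 and 79), did not pass the threshold (limma, adjusted p = 0.346 and 0.677).

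Genes that halt the cycle were examined beside those that drive it. Of 7 inhibitors of cyclin-dependent kinases 0 passed the threshold (limma), with 2 lower at an unadjusted p under 0.05 (13.6% over all genes) and a median of -0.33. They were the 2 highest, *Cdkn1b* (p27), with 79, 95 and 72 against 62, 50 and 53 (log2 -0.56, limma, adjusted p = 0.0701), and *Cdkn2d* (p19), with 68, 79 and 55 against 46, 49 and 39 (log2 -0.57, limma, adjusted p = 0.0911). Of 14 targets of p53 1 rose, with 2 higher and 3 lower at an unadjusted p under 0.05 (9.59% and 13.6% over all genes) and a median of 0.03. It was *Bax*, which promotes cell death, with 50, 49 and 56 against 84, 90 and 113 (log2 0.87, SE 0.14, limma, adjusted p = 0.0496). It too did not pass with a pseudocount of 0.5 or without the intensity trend. *Mdm2*, the other of the highest in that list, had 79, 67 and 89 against 93, 82 and 95, with overlap. Of the 164 genes in these lists, 26 passed the threshold without sgLacZ replicate 3 (9 higher and 17 lower), beside 14.2% of all genes in that fit. Without any other single library 0 passed (limma), with 32 to 35 at an unadjusted p under 0.05. Over all genes 3332 to 3853 of the 18860 to 19125 tested were under 0.05 in those fits, a similar share.

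Several markers of other cells in the culture also differed between the groups. Astrocyte markers summed to 961 to 1069 in the sgLacZ and 702 to 718 in the sgKcna1 libraries. At an unadjusted p under 0.05, 6 of 10 were lower and 0 higher (limma, 13.6% and 9.59% over all genes). Past the threshold 3 fell, beside 0.81% lower over all genes tested. They were *Aqp4*, a water channel (53, 54 and 39 against 18, 17 and 17), *Sox9*, a transcription factor of glia (235, 214 and 210 against 155, 141 and 151), and *Aldoc*, a glycolytic enzyme (170, 168 and 160 against 117, 112 and 112). Their groups did not overlap (limma, adjusted p = 0.0486, 0.0496 and 0.0496). *Gfap* had 63, 45 and 57 against 46, 48 and 70, with overlap. Of 12 neural progenitor markers 2 fell (0.81% over all genes), and 6 were lower at an unadjusted p under 0.05 (limma, 13.6% over all genes). The list summed to 922 to 1272 against 533 to 635. *Hes5*, a target of Notch, had 197, 211 and 199 against 112, 114 and 115 (log2 -0.83, limma, adjusted p = 0.0422). *Fabp7*, a fatty acid binding protein of radial glia, had the largest difference of that list, with 635, 471 and 301 against 118, 82 and 117 (log2 -2.09, limma, adjusted p = 0.0486). Of 10 oligodendrocyte lineage markers 1 fell (0.81% over all genes), the transcription factor *Olig2* (19, 20 and 16 against 9, 7 and 9, limma, adjusted p = 0.0497). At an unadjusted p under 0.05, 5 of the 8 tested were lower and 1 was higher (limma, 13.6% and 9.59% over all genes). That list summed to 66 to 98 against 41 to 45, with *Mog* and *Mag*, which mark mature myelin, at 0 in all libraries. Of the 6 markers that fell past the threshold, *Hes5* alone passed with a pseudocount of 0.5 and *Aqp4* alone without the intensity trend. None passed when any 1 library other than sgLacZ replicate 3 was left out. The log2 fold change was above 0 for 1 astrocyte, 1 progenitor and 2 oligodendrocyte lineage markers. The part of these cells in the values of the members was not tested.

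Of 10 microglia markers 8 were tested, with a median log2 fold change of 1.26. At an unadjusted p under 0.05, 5 were higher and 0 lower (limma, 9.59% and 13.6% over all genes). In 5 every sgKcna1 library lay above every sgLacZ library (8.98% over all genes). Past the threshold 1 rose (0.349% over all genes), the complement gene *C1qa*, with 9, 6 and 6 against 23, 22 and 24 (limma, adjusted p = 0.0486). It did not pass with a pseudocount of 0.5 or without any 1 library other than sgLacZ replicate 3. The list summed to 22 to 26 against 56 to 77, while *Tmem119* and *P2ry12* were at 0 in all libraries. Vascular and meningeal markers, which share *Cspg4* with the oligodendrocyte list, summed to 17 to 24 against 10 to 17, with 0 of 10 passing at the adjusted or the unadjusted threshold (limma). Neuron markers summed to 4336 to 5116 against 5523 to 6936, with 0 of 10 passing (limma). At an unadjusted p under 0.05, 3 were higher and 3 lower (limma, 9.59% and 13.6% over all genes). The higher sum came from *Tubb3*, a neuronal tubulin, with 1862, 1752 and 2605 against 3855, 3221 and 4591. The other 9 neuron markers summed to 2474, 2661 and 2511 against 2390, 2302 and 2345, and the median log2 fold change of the list was -0.02. Hippocampal markers (1779 to 1903 against 1638 to 1924) and neocortical markers (421 to 493 against 359 to 393) were both detected, and 0 of 8 passed in either list (limma). At an unadjusted p under 0.05, 2 hippocampal markers were lower and 0 higher, and 2 neocortical markers were lower and 1 higher (limma). Over all genes these shares were 13.6% lower and 9.59% higher. Their part in the values of the members was likewise not tested.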

How the data were processed

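RNA-seq values were analysed for 3 sgLacZ and 3 sgKcna1 libraries, grouped by the labels. Libraries were made with the QuantSeq 3′ FWD kit. The authors deposited a score per gene for each library, a whole number without a header. It was taken to be a rounded per-million value, from the library totals and because the variance between replicates was below the mean (ratio 0.705 and 0.504 for genes with means of 4 to 8 in sgLacZ and sgKcna1 libraries). The aligner and build differ between the sources: the methods name Bowtie2 with mm9, and the submitters' processing notes list STAR 2.7, featureCounts, DESeq2 and mm10. The scaling step is not given in the sources used here, and count tests could not be used.

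The test took every gene above 0 in 1 library or more, on log2(value + 1) with limma 3.58.1 (lmFit, eBayes with an intensity trend) in R 4.3.3, with group as the only factor, Benjamini-Hochberg adjustment over all 19504 genes and a threshold of 0.05. The code was tested on simulated data, with changes larger than that of any member and only in genes of higher values. It does not show that changes like those of the members would be found. Fold changes on this scale understate those of low genes. Members and gene lists were chosen with earlier results of these data known. Full values were given for members with a mean of at least 10 in either group, for the genes of all other lists that passed the threshold, and for the 2 highest of each list of other pathway genes. *Gfap* and *Tubb3* were named after their values were seen. Alternatives changed the pseudocount, filter, scaling, trend and block, or left out 1 library. Overlapping genes at the last 500 bases of members were read from GENCODE vM1 (NCBIM37), and promoter windows from RefSeq (GRCm38.p6).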

Additional observations from a re-analysis of the deposited data

How the results depend on the processing

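The number of genes called was the least stable result. It was 226 (68 higher, 158 lower) and became 10 with a pseudocount of 0.5, 627 with a pseudocount of 0.1, 1543 and 2481 with means of at least 1 and 5, 1721 (963 higher, 758 lower) with median-of-ratios rescaling, 2058 (1226 higher, 832 lower) with upper-quartile rescaling, 1808 without Gm42418, and 0 to 2711 with 1 library left out. Only the fit without sgLacZ replicate 3 gave calls among the latter, and the others gave 0. The cause was not tested. The median of all genes stayed within -0.08 and 0.03 in every setting.

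Mitosis members called numbered 0 as reported, 1 with a pseudocount of 0.1, 3 with means of at least 1 or at least 5, 2 with median-of-ratios rescaling, 1 with upper-quartile rescaling, 3 without Gm42418 and 0 to 1 with 1 library left out. DNA replication members called numbered 0 as reported, 4 with means of at least 1 or at least 5, 3 with either rescaling, 4 without Gm42418 and 0 to 4 with 1 library left out. G1 to S members called numbered 0 as reported, 1 with means of at least 5 and 0 to 1 with 1 library left out. Other genes of the pathways called numbered 3 as reported, 0 with a pseudocount of 0.5, 17 and 26 with means of at least 1 and 5, 14 and 18 with the median-of-ratios and upper-quartile rescalings, 20 without Gm42418, 1 without the intensity trend and 0 to 26 with 1 library left out.

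The mitosis median of -0.49 became -0.56 and -0.63 with pseudocounts of 0.5 and 0.1, -0.44 with means of at least 5, -0.42 and -0.40 with the rescalings, and -0.55 to -0.42 with 1 library left out. The DNA replication median of -0.39 became -0.78 with means of at least 5, where 9 of 13 genes were tested, and was -0.69 to -0.37 with 1 library left out. The G1 to S median of -0.21 became -0.13 and -0.10 with the rescalings and was -0.36 to -0.17 with 1 library left out. The summed mitosis difference of -27.6% became -23.1% and -21.5% with the rescalings, and the G1 to S difference of -15.0% became -9.77% and -7.98%, or -31.3% without *Ccnd2*. *Rrm1* (-0.09) changed sign to 0.027 with upper-quartile rescaling and to 0.065 without sgKcna1 replicate 3, in a range of -0.23 to 0.065 with 1 library left out. *Cenpf* (0.16) ranged from -0.10 (without sgLacZ replicate 1) to 0.37. *Mcm5* (0.03) ranged from -0.29 to 0.41 and was below 0 without sgLacZ replicate 2, sgKcna1 replicate 2 or sgKcna1 replicate 3. Among the low members, *Bub1* (-0.33) ranged from -0.83 to 0.17, *Ccnb2* (0.33) from -0.17 to 0.83, *Ccne2* (0.23) from -0.092 to 0.57 and *Cdc6* (0.14) from -0.39 to 0.40 with 1 library left out. *Aurkb* (0) took either sign.

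The replicate numbers are shared between the groups but are not said to pair the libraries. Deviations of libraries with the same number correlated at 0.0128, 0.0890 and 0.131, and not every library correlated best with its own number. With the replicate number as a block, 0 genes passed (limma, 4326 at an unadjusted p under 0.05), among them 0 members and 0 other genes of the pathways, and the *Kcna1* difference of 1.83 had an adjusted p of 0.111. Without 1 library the *Kcna1* difference was 1.73 to 1.99. Rounded values leave genes below about 5 imprecise, and the unknown depth allows no counting interval.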
